A study of Mus musculus with 2 samples.

Results

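The platelet-derived growth factor (PDGF) system is encoded by 6 genes, the ligands Pdgfa, Pdgfb, Pdgfc and Pdgfd and the receptors Pdgfra and Pdgfrb. These genes were taken by symbol from the 28380 genes of the count tables and were followed across the endothelial, mural, stromal and fibroblast cells of young mouse bone. Single cells were isolated from femur and tibia without the epiphysis of C57BL/6 mice at postnatal day 30, with 1 BD Rhapsody library per group. The Dach1OE group carried Apj CreERT2 with Dach1OE +/f, an inducible Cre driven by the Aplnr (Apj) gene, which is active in endothelial cells (ECs), and a Cre-dependent Dach1 transgene at Rosa26. The Control group carried Dach1OE +/f without the Cre. Per the methods both groups received tamoxifen on postnatal days 1 and 2, a membrane reporter was crossed in, and 2 mice of both sexes were pooled per library. Haematopoietic cells were depleted before capture, so that the blood cells below are those that escaped the depletion. The design therefore asks how the PDGF genes differed between the cells of Control bone and those of bone whose Aplnr-lineage ECs overexpressed Dach1.

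PDGFs are dimeric growth factors that act through 2 receptor tyrosine kinases. PDGF-A, PDGF-B and PDGF-C bind PDGFRα, whereas PDGF-B and PDGF-D bind PDGFRβ. PDGF-A and PDGF-B are secreted in active form, while PDGF-C and PDGF-D carry a CUB domain that must be cleaved off outside the cell before they bind. In growing vessels PDGF-B from ECs recruits and holds PDGFRβ-positive pericytes, and both receptors are widely used to mark mesenchymal cells, including the stromal progenitors of bone marrow.

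The files held 28720 cells of the Control library and 32028 of the Dach1OE library, of which 26466 and 29317 had 500 to 6000 genes and under 25% mitochondrial molecules and were kept. The libraries held 143986818 and 166999989 molecules (unique molecular identifiers, UMIs) from 217926019 and 241670346 reads, and the kept cells had median depths of 3793.5 and 4055 UMIs. The libraries shared 1049 cell barcodes, 3.65% of the Control and 3.28% of the Dach1OE cells. Cells were placed into classes by fixed marker lists that hold no PDGF gene. The class names below stand for "-like" cells, 47631 of 55783 kept cells fell into 1 broad class, and 2260 kept cells (4.05%) lay within 0.05 score units of the gate. Each named class was led by its own markers, and the exceptions matter for a few values. The class led by Scgb3a1, Clca3a1, Madcam1 and Igfbp5 rested on only 2 of 4 markers and is called Scgb3a1-positive ECs here without a cell type name. Dach1, the overexpressed gene, was also among its leading genes, and the paper reports MAdCAM1 as a marker of sinusoidal marrow ECs. Type R ECs had the smooth muscle gene Tagln among their leading genes, and proliferating stromal cells had the erythroid genes Car1, Car2 and Hba-a1. As a check of the labels, the ECs of the Control library held 151 Dach1 UMIs and those of the Dach1OE library 6134. The Aplnr counts of the 2 EC classes were 17298 and 17560, which do not show which library carried the Cre.

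A level below is in CPM, the UMIs of a gene per 1000000 UMIs of its class in 1 library, with an exact Poisson 95% interval. A difference is the log2 ratio of the Dach1OE level over the Control level. With 1 library per group the differences have no replicate check and no test was made. The intervals cover counting error only, not the spread between animals. A gene was said to have risen or fallen when it had at least 20 UMIs over both libraries, differed by at least 1.5-fold, and had an interval that excluded 0. Shares of cells with a UMI were taken after each cell had been thinned to 1000 UMIs unless stated otherwise. Levels were compared between classes for 1 gene at a time.

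**Figure D1:**
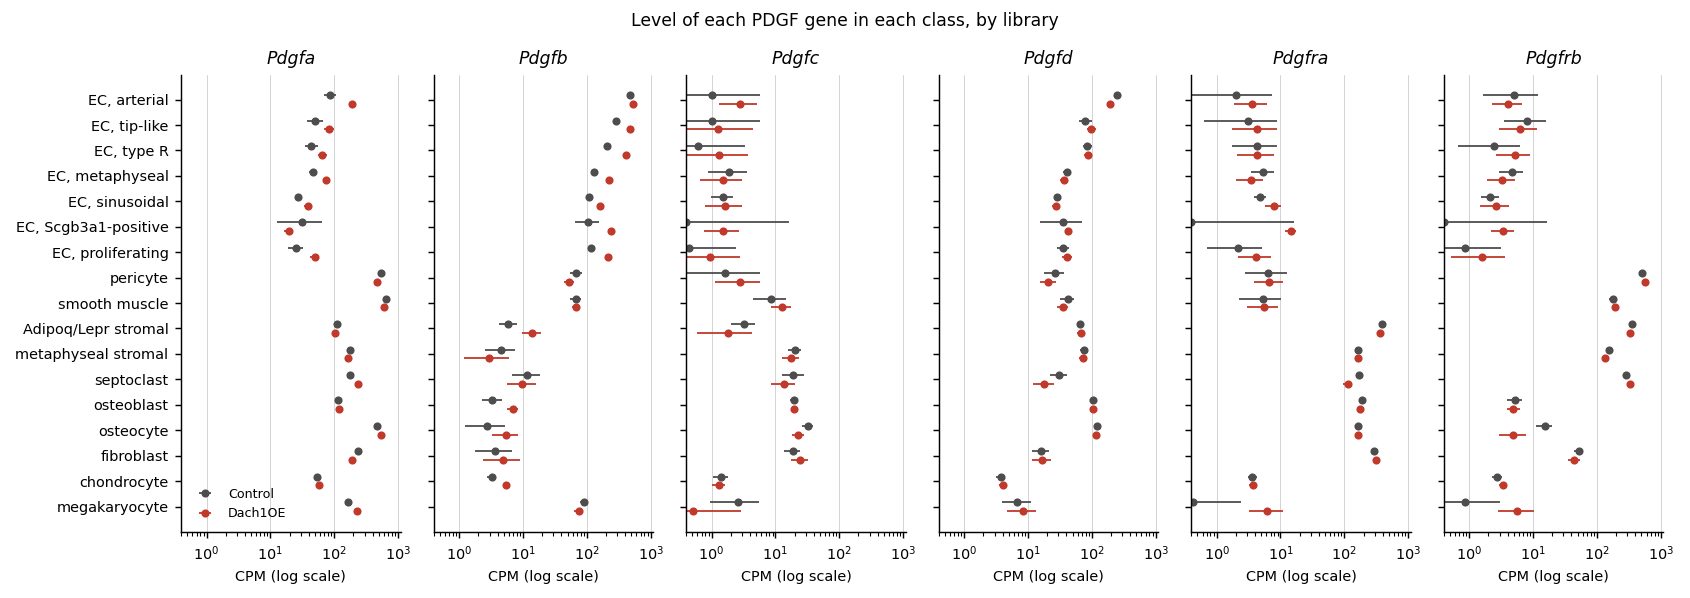
Level of each PDGF gene in CPM on a log axis in 17 cell classes, Control in grey and Dach1OE in red. Points are the libraries' levels, bars are exact Poisson 95% intervals, and levels of 0 sit on the left edge. Pdgfb was highest in ECs, Pdgfra in stromal cells and fibroblasts, and Pdgfrb in pericytes, Adipoq/Lepr stromal cells and septoclasts.

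Pdgfb, the ligand that recruits pericytes, was found mainly in ECs. The gene lies on chromosome 15 (79995874 to 80014977, minus strand, GRCm38). ECs made up 33.7% of the kept Control cells and held 76.5% of the Pdgfb UMIs, and in Dach1OE 31.7% of the cells held 80.1% of them. Within Control ECs the order of levels ran from arterial ECs with 475 CPM (433 to 520) over tip-like ECs with 286 CPM to type R ECs with 211 CPM, and the intervals of these 3 neighbours did not overlap. ECs without a subtype followed with 134 CPM (105 to 169), below type R ECs without overlap, then metaphyseal ECs with 130 CPM, proliferating ECs with 118 CPM, sinusoidal ECs with 109 CPM and Scgb3a1-positive ECs with 103 CPM (65.2 to 154), and the intervals of neighbours in this lower group overlapped. In the Dach1OE library arterial ECs had 527 CPM and tip-like ECs 472 CPM, with touching intervals, and sinusoidal ECs were lowest of the EC subclasses compared with 163 CPM (153 to 174).

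In all ECs taken as 1 class, Pdgfb had 4115 UMIs in 8929 Control cells and 8647 UMIs in 9286 Dach1OE cells. Its level rose from 136 CPM (132 to 140) to 282 CPM (276 to 288), a log2 ratio of 1.05 (0.998 to 1.106). The share of ECs with a Pdgfb UMI was 12.3% and 23.8% at 1000 UMIs per cell, and 30.0% and 47.3% without thinning. In chondrocytes, taken as a background class without a test that they lack the gene, the thinned shares were 0.269% and 0.636%. Their median depths were 10663 and 10043 UMIs against 2758 and 2750 in ECs. Of the 6 PDGF genes, 3 rose in ECs, namely Pdgfb, Pdgfa and Pdgfra, and none fell, while 7.41% of all 15934 genes measured in ECs were called as higher and 13.7% in either direction.

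The make-up of the EC class differed between the libraries, and this moved with the Pdgfb level. Sinusoidal ECs, the subtype with low Pdgfb, were 61.8% of Control and 24.0% of Dach1OE ECs. Arterial ECs, the subtype with the highest level, were 3.45% and 11.4%, and Scgb3a1-positive ECs were 0.728% and 22.8%. With each of 8 subclasses weighted equally the levels were 196 CPM and 323 CPM, a log2 ratio of 0.72, and without the Scgb3a1-positive ECs the ratio was 1.112. The remaining part of make-up in these ratios was not tested, nor was how far the Scgb3a1-positive class holds cells of sinusoidal type.

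Pdgfb was higher in Dach1OE within all 8 EC subclasses compared, with intervals above 0, and was called in 7 of them. In sinusoidal ECs the level rose from 109 CPM to 163 CPM (log2 0.59, 0.48 to 0.70), where 8.65% of all genes were called. Metaphyseal ECs, the capillaries next to the growth plate, rose from 130 CPM to 223 CPM (log2 0.78, 0.64 to 0.92), beside 8.78% of all genes. Tip-like ECs, the sprouting end of these vessels, rose from 286 CPM to 472 CPM (log2 0.72, 0.52 to 0.93), beside 11.4%. The sinusoidal value lies at the limit of the call. It was under 1.5-fold, with an interval above 0, in 7 of 10 alternatives, among them the Xist cells (0.54), the Y-linked cells (0.48), scaling by trimmed means (0.52) and assignment of cells by their whole profile (0.22). The call in tip-like ECs ended in 3 of 10, by profile (0.31), in Xist cells (0.47, against 1.07 in Y-linked cells) and after thinning (0.56). These 3 subclasses thus differed less than the whole EC class.

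Type R ECs rose from 211 CPM to 408 CPM (log2 0.95, 0.77 to 1.13), beside 11.9% of all genes. In proliferating ECs the ratio was 0.87 (0.66 to 1.08), beside 9.82%, and in ECs without a subtype 1.31 (0.94 to 1.70), beside 11.1%. Scgb3a1-positive ECs had a ratio of 1.23 (0.64 to 1.89), beside 8.03%, but only 23 Control UMIs from 65 cells stand behind it. Arterial ECs were the exception, with 475 CPM in Control and 527 CPM in Dach1OE, a log2 ratio of 0.15 (0.00 to 0.30).

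Because each library pooled mice of both sexes, cells with Xist but without Y-linked UMIs (Xist cells) could be compared apart from cells with the reverse pattern (Y-linked cells). Which mouse a cell came from is not recorded. The log2 ratio of Pdgfb in ECs was 1.03 in the Xist cells and 1.06 in the Y-linked cells. All 8 EC subclasses had a positive ratio in both sets of cells. In arterial ECs these ratios were 0.05 and 0.07.

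**Figure D2:**
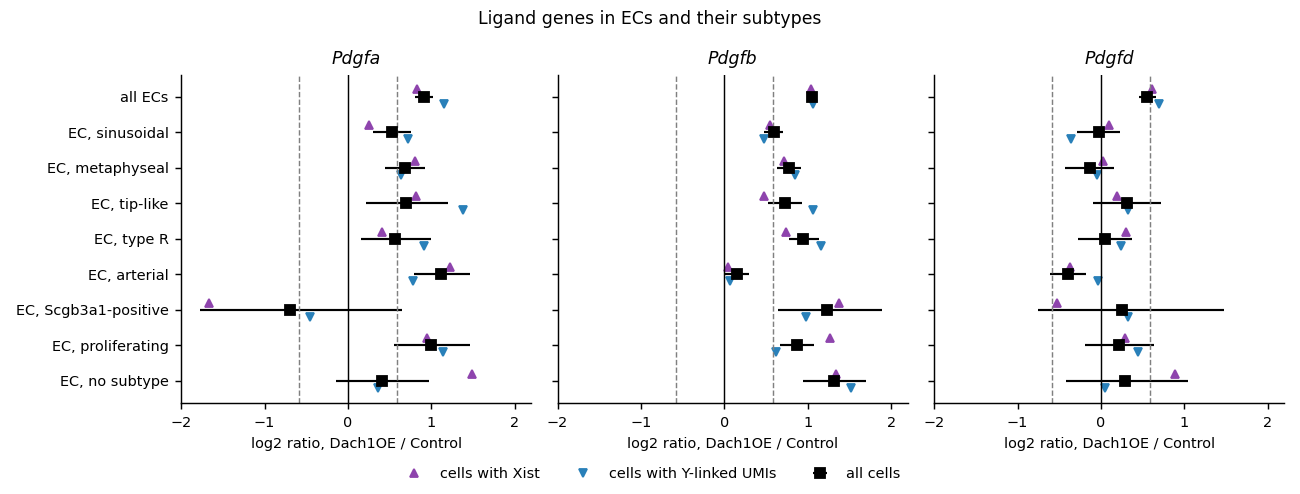
Log2 ratio of the Dach1OE over the Control level of Pdgfa, Pdgfb and Pdgfd in all ECs and 8 EC subclasses. Squares are all cells with exact 95% intervals, triangles are cells with Xist or with Y-linked UMIs, and dashed lines mark 1.5-fold. Pdgfb lay above 0 in each subclass, Pdgfa in 7 of 8, and Pdgfd scattered around 0 although it was at 0.55 in all ECs.

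The Dach1OE library also holds ECs in which no Dach1 UMI was seen, and these allow a comparison within 1 library. The 3537 ECs with a Dach1 UMI had 319 CPM of Pdgfb and the 5749 ECs without one had 251 CPM, a log2 ratio of 0.35 (0.29 to 0.41). The median depths were 3382 and 2461 UMIs, so the cells without a Dach1 UMI were also the shallower ones. At the 200 CPM of Dach1 in Dach1OE ECs, a missing UMI does not show that a cell lacked the transgene. The set without a Dach1 UMI may thus hold many overexpressing cells, more so after thinning, and the size of the ratios is limited by this. With each cell thinned to 1000 UMIs, Dach1 included, the ratio was 0.371 (0.237 to 0.504). With the full counts and the subtypes weighted equally the ratio was 0.22. It was 0.53 in metaphyseal, 0.47 in type R and 0.45 in sinusoidal ECs, 0.22 (0.01 to 0.44) in tip-like ECs, 0.05 (-0.08 to 0.18) in arterial ECs and -0.05 (-0.18 to 0.09) in Scgb3a1-positive ECs. All of these Pdgfb differences were under 1.5-fold.

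The other members were compared in the same way between Dach1OE ECs with and without a Dach1 UMI. Pdgfa had a log2 ratio of 0.21 (0.09 to 0.34), which was -0.016 (-0.34 to 0.295) after thinning and 0.153 with the subtypes weighted equally. Pdgfd had one of 0.16 (0.03 to 0.29), which was 0.134 (-0.18 to 0.438) after thinning and -0.11 with the subtypes weighted equally. Neither gene thus kept its direction in both settings. The intervals of Pdgfc and Pdgfra included 0. Within subclasses Pdgfa was past 1.5-fold in sinusoidal ECs, with 54.3 CPM in the cells with a Dach1 UMI and 32.7 CPM in those without (0.73, 0.34 to 1.12). It was higher but under 1.5-fold in arterial (0.338, 0.115 to 0.562) and metaphyseal ECs (0.321, 0.019 to 0.621). In Scgb3a1-positive ECs with a Dach1 UMI it was lower (-0.52, -1.02 to -0.03), and in type R and tip-like ECs the intervals included 0. Pdgfrb was lower in all ECs with a Dach1 UMI (-0.65, -1.27 to -0.06), on 37 and 71 UMIs. Its levels of 2.68 CPM and 4.21 CPM were near the 2.74 CPM (Control) and 3.42 CPM (Dach1OE) of chondrocytes. This ratio was not taken again after thinning or with the subtypes weighted equally.

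Outside the endothelium Pdgfb was found at lower levels in 2 places. Megakaryocytes, the platelet precursors that store PDGF, had 91.2 CPM in Control and 75.6 CPM in Dach1OE (log2 -0.27, -0.59 to 0.04), and none of the 6 genes was called over all of them, beside 6.99% of all genes. In the Xist megakaryocytes, 84 and 56 cells, Pdgfb was lower past 1.5-fold (-1.21, -2.12 to -0.40, on 76 and 15 UMIs) and Pdgfa higher (1.45, 0.69 to 2.22, on 28 and 35 UMIs), whereas the Y-linked cells had ratios of 0.028 and 0.232. Mural cells had 65.0 CPM and 56.6 CPM (log2 -0.20, -0.46 to 0.07), with 13.5% and 11.6% of cells holding a UMI before thinning. The mural level was 47.8% and 20.1% of the EC level, whereas the 8 endothelial markers summed to 7.72% and 7.82% of their EC level in mural cells (552 and 614 CPM, none at 0) and reached at most 32.7% and 33.0% for a single marker. The part of endothelial RNA in the mural Pdgfb level was not tested further.

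In osteoblasts, Adipoq/Lepr stromal cells and chondrocytes Pdgfb was low, near the share of its EC level that the endothelial markers had. It rose in chondrocytes from 3.27 CPM to 5.53 CPM (log2 0.76), in osteoblasts from 3.33 CPM to 6.89 CPM (1.05) and in Adipoq/Lepr stromal cells from 5.90 CPM to 13.8 CPM (1.22). The shares of all genes called in these classes were 6.3, 5.15 and 4.63%. Pdgfb stood at 2.41% and 1.96% of its EC level in chondrocytes, where the endothelial markers summed to 2.16% and 2.03% of theirs. In osteoblasts it was 2.45% in both libraries, against 2.03% and 2.12%, and in Adipoq/Lepr stromal cells 4.34% and 4.89%, against 4.15% and 3.79%. The summed endothelial markers themselves were 155 CPM and 159 CPM in chondrocytes and 201 CPM and 191 CPM in bone stromal cells as a whole, with none at 0. The part of endothelial RNA in these Pdgfb counts was not tested. In cells thinned to 1000 UMIs the intervals of the Pdgfb ratio included 0 in osteoblasts (0.86, -0.72 to 2.70) and in Adipoq/Lepr stromal cells (0.94, -0.48 to 2.31), as they did in the Y-linked osteoblasts (1.155) and the Xist cells of the Adipoq/Lepr subtype (0.78).

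The other blood cells that escaped the depletion held few PDGF UMIs. In basophils Pdgfb had 12 UMIs in Control and 43 in Dach1OE (log2 1.53, 0.58 to 2.59) and Pdgfa 10 and 37 (1.57, 0.54 to 2.75), beside 4.87% of all genes called. In leukocytes Pdgfd had 3 and 17 UMIs (2.42, 0.63 to 4.83), beside 5.5%, and in myeloid progenitors Pdgfra had 5 and 17 UMIs (1.75, 0.25 to 3.54), beside 4.6%. The Xist basophils kept both calls, with 2.14 (0.52 to 4.17) for Pdgfb and 1.71 (0.33 to 3.33) for Pdgfa. In the Y-linked basophils the ratios were 0.39 (-1.29 to 2.29) for Pdgfb and 0.71 (-1.90 to 4.10) for Pdgfa, neither of them a call. Pdgfd in leukocytes was 3.05 (0.15 to 8.52) in the Xist cells, on only 1 and 8 UMIs, and 1.14 (-1.66 to 4.61) in the Y-linked cells. Nor was Pdgfra called in the Xist (1.42, -0.80 to 4.05) or Y-linked (1.07, -2.56 to 6.79) myeloid progenitors. These counts are small, and Pdgfb in basophils stood at 19.8 CPM or less. The receptor genes stood near this in basophils, Pdgfra at 10.9 CPM and 10.1 CPM and Pdgfrb at 10.3 CPM and 16.6 CPM. The part of RNA from other cells in these counts was not tested.

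Pdgfa, the main ligand of PDGFRα, had its highest levels in mural cells and osteocytes and was lower in ECs. The gene lies on chromosome 5 (138976014 to 138997370, minus strand, GRCm38). Its level in Control was 647 CPM (608 to 689) in smooth muscle cells, 537 CPM (497 to 579) in pericytes and 462 CPM (439 to 485) in osteocytes, an order without overlap between neighbours. In Dach1OE osteocytes with 539 CPM stood above pericytes with 468 CPM, again without overlap. Fibroblasts had 239 CPM and 190 CPM (log2 -0.33, -0.52 to -0.15) and megakaryocytes 167 CPM and 226 CPM (log2 0.44, 0.24 to 0.64). In bone stromal cells as a whole the levels were 168 CPM and 186 CPM (log2 0.14, 0.08 to 0.20), and these cells held 36.3% and 31.5% of all Pdgfa UMIs. Chondrocytes, deep and numerous cells, held 19.1% and 20.5% at a level of 54.4 CPM and 57.5 CPM, mural cells 13.9% and 17.7%, and ECs 8.48% and 12.4%.

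Pdgfa in ECs was low in Control and rose with Pdgfb. The EC level was 35.0 CPM (32.9 to 37.1) in the Control and 65.6 CPM (62.7 to 68.5) in the Dach1OE library, a log2 ratio of 0.91 (0.80 to 1.02), with 0.83 in the Xist cells and 1.16 in the Y-linked cells. The thinned share of ECs with a UMI was 3.29% and 5.65%. With subclasses weighted equally the ratio was 0.68, and without the Scgb3a1-positive ECs it was 1.19.

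Of the 8 EC subclasses compared, arterial ECs had the highest Pdgfa level in both libraries and, over all cells, the largest ratio. Their level rose from 86.9 CPM (69.4 to 107) to 188 CPM (175 to 203), a log2 ratio of 1.12 (0.79 to 1.46), where 14.1% of all genes were called. The Control interval overlapped that of ECs without a subtype (71.8 CPM), and the interval of the ratio held the value of proliferating ECs. Pdgfa also rose in metaphyseal (0.68), tip-like (0.70) and proliferating ECs (0.996). The metaphyseal value was under 1.5-fold by profile (0.42), and those of tip-like (0.07) and proliferating ECs (0.48) were after thinning, with intervals that included 0. Sinusoidal ECs (0.53, 0.30 to 0.75) and type R ECs (0.57, 0.15 to 0.99) had intervals above 0 but were under 1.5-fold, although the sinusoidal ratio was 0.72 (0.24 to 1.18) in Y-linked cells and 0.26 in Xist cells. The arterial subtype was therefore called for Pdgfa and not for Pdgfb, but the difference between the genes was not tested. Scgb3a1-positive ECs had the lowest Pdgfa level in Dach1OE, 19.3 CPM (16.3 to 22.8), and their 7 Control UMIs gave no usable comparison (log2 -0.70, -1.78 to 0.64).

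Mural cells had less Pdgfa in Dach1OE, under 1.5-fold. The levels were 584 CPM (557 to 612) in Control and 516 CPM (498 to 536) in Dach1OE, a log2 ratio of -0.18 (-0.27 to -0.09), with -0.20 in pericytes and -0.11 (-0.23 to 0.01) in smooth muscle cells. The ratio was -0.04 in Xist cells and -0.38 in Y-linked cells, and in pericytes 0.04 and -0.41. None of the 6 genes was called in mural cells, where 6.02% of all genes were, and none in pericytes or smooth muscle cells, where 6.37 and 6.84% were.

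Pdgfd, a ligand of PDGFRβ that needs cleavage, had its highest level in arterial ECs, with osteocytes, osteoblasts and other EC and stromal subtypes below them. The gene lies on chromosome 9 (6168584 to 6378850, plus strand, GRCm38). Arterial ECs had the highest level in both libraries, 252 CPM (222 to 286) and 192 CPM (178 to 206). Osteocytes had 122 CPM and 115 CPM, and osteoblasts 105 CPM and 104 CPM, with overlapping intervals. Type R ECs with 85.2 CPM and 88.0 CPM, tip-like ECs with 79.4 CPM and 98.2 CPM, metaphyseal stromal cells with 75.4 CPM and 73.1 CPM and Adipoq/Lepr stromal cells with 64.2 CPM and 68.1 CPM followed, and neighbours in this order overlapped from osteocytes on. Stromal cells held 51.7% and 44.8% of the Pdgfd UMIs and ECs 29.1% and 34.9%.

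For all ECs as 1 class the Pdgfd levels were 42.9 CPM and 62.9 CPM, a log2 ratio of 0.55 (0.45 to 0.66), just under 1.5-fold. It was past 1.5-fold in the Xist cells (0.62, 0.44 to 0.79) and in the Y-linked cells (0.69, 0.48 to 0.91). Within the EC subclasses no interval lay above 0. None of the 8 passed 1.5-fold, 7 intervals included 0, and that of arterial ECs lay below 0 (log2 -0.40, -0.61 to -0.18). With subclasses weighted equally the levels were 75.0 CPM and 72.4 CPM, a log2 ratio of -0.05. Arterial ECs, with the highest Pdgfd level, were more frequent in Dach1OE, and without the Scgb3a1-positive ECs the pooled ratio was 0.69. The part of make-up in the pooled level was not tested further.

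Pdgfd was also low in septoclasts, the matrix-resorbing cells of the growth plate border, where it fell from 30.6 CPM to 17.8 CPM (log2 -0.79, -1.51 to -0.08), on 45 and 29 UMIs. The ratio there was 0.45 in Xist cells and -1.88 in Y-linked cells, so its sign differed between these sets, and the call also ended with cells of 2 classes kept (-0.37) and after thinning (-0.47). Septoclasts had 2 of the 6 genes called, Pdgfd and Pdgfra, both lower, beside 6.67% of all genes.

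Pdgfc, the other ligand with a CUB domain, was sparse everywhere, with 745 and 818 UMIs over all kept cells. The gene lies on chromosome 3 (81036416 to 81214040, plus strand, GRCm38). Stromal cells held 60.3% and 57.8% of its UMIs. Osteocytes had the highest level in Control with 32.4 CPM (26.5 to 39.1), against 22.7 CPM (18.1 to 28.1) in Dach1OE, and in osteoblasts it was 19.8 CPM in both libraries. The osteocyte log2 ratio of -0.51 (-0.94 to -0.09) was under 1.5-fold, with 0.26 in Xist cells and -0.94 in Y-linked cells. Fibroblasts had 18.6 CPM and 24.1 CPM, the latter the highest level in Dach1OE with an interval that overlapped that of osteocytes, and metaphyseal stromal cells had 19.98 CPM and 17.4 CPM. In ECs it was 1.39 CPM and 1.66 CPM, from 42 and 51 UMIs, and a difference was not detectable at this depth (log2 0.26, -0.36 to 0.89). Adipoq/Lepr stromal cells had 3.17 CPM and 1.81 CPM, below the other stromal subtypes.

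**Figure D3:**
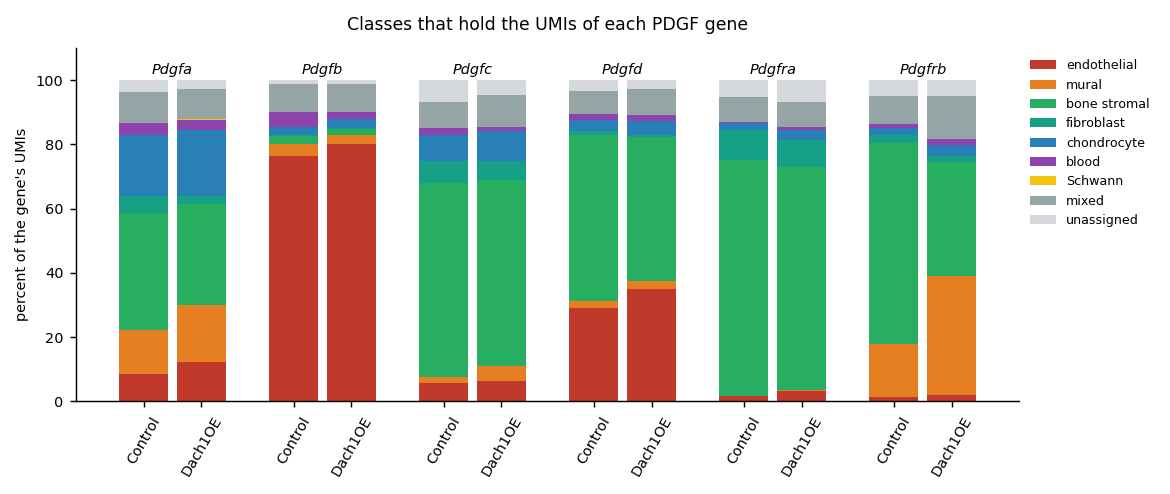
Percent of the kept UMIs of each PDGF gene that fell into each cell class, per library, with cells of 2 classes (mixed) and unassigned cells shown in grey. ECs held 76.5% and 80.1% of the Pdgfb UMIs, and the bone stromal share of Pdgfrb was 62.6% in Control and 35.5% in Dach1OE. The mural share of Pdgfrb was 16.5% and 37.1%, from mural cells that were 4.35% and 7.86% of the kept cells.

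Pdgfra, the receptor of PDGF-A and PDGF-C, was a stromal and fibroblast transcript. The gene lies on chromosome 5 (75152292 to 75198215, plus strand, GRCm38). Adipoq/Lepr stromal cells, the CXCL12-producing reticular cells of the marrow, had the highest level, 384 CPM (370 to 399) in Control and 356 CPM (334 to 379) in Dach1OE. Fibroblasts came next with 292 CPM (272 to 313) and 309 CPM (286 to 334), just touching in Dach1OE, a log2 ratio of 0.08 (-0.07 to 0.23). None of the 6 genes was called in fibroblasts, beside 7.91% of all genes. Osteoblasts had 190 CPM and 176 CPM, metaphyseal stromal cells 163 CPM and 167 CPM, and osteocytes 162 CPM and 166 CPM. The thinned share of cells with a UMI was 30.2% and 28.0% in Adipoq/Lepr stromal cells. It was 0.342% and 0.477% in chondrocytes, at median depths of 2712.5 and 2737 UMIs against 10663 and 10043 UMIs.

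In the bone stromal class as a whole Pdgfra was 228 CPM and 184 CPM, a log2 ratio of -0.31 (-0.36 to -0.25), under 1.5-fold. The median log2 ratio of all genes in this class was -0.20, so relative to that shift the Pdgfra difference was -0.10. Septoclasts were the only stromal subtype in which Pdgfra was called. Their level fell from 172 CPM (152 to 195) to 113 CPM (97.0 to 130), a log2 ratio of -0.61 (-0.89 to -0.33), with -0.15 in Xist cells and -0.63 in Y-linked cells. By profile it was -0.42 and with cells of 2 classes kept -0.58, both under 1.5-fold.

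ECs had few Pdgfra UMIs, 134 in Control and 226 in Dach1OE, and the level rose from 4.42 CPM to 7.36 CPM (log2 0.73, 0.42 to 1.05). The ratio was 0.239 in Xist cells and 1.003 in Y-linked cells, and it was under 1.5-fold by profile (0.27) and with cells of 2 classes kept (0.496). The thinned shares of 0.425% and 0.724% of ECs were near the 0.342% and 0.477% of chondrocytes. Summed stromal markers were also higher in these ECs, from 590 to 862 CPM for 6 Adipoq/Lepr markers and from 1290 to 1670 CPM for 6 osteoblast markers. None of them was at 0. Relative to bone stromal cells the osteoblast sum stood at 1.08% and 1.07%, and Pdgfra at 1.94% and 4.0% of its stromal level. These percentages also depend on the stromal levels, which differed between the libraries. In bone stromal cells the osteoblast sum was 120000 and 156000 CPM, the Adipoq/Lepr sum 20500 and 7690 CPM, and Pdgfra 228 and 184 CPM. The Adipoq/Lepr sum stood at 2.88% and 11.2%, but single markers ranged from 0.903% to 58.1% in Dach1OE. That list holds Cxcl12, which the paper reports as high in type R ECs. The highest EC level was in Scgb3a1-positive ECs of Dach1OE with 14.4 CPM (11.8 to 17.4), 105 UMIs in 2117 cells, whereas the 65 Control cells of this class had 0 UMIs (exact interval 0 to 16.5 CPM). The interval of this ratio reached down to -0.22, so a difference was not detectable at this depth. In sinusoidal ECs the level rose from 4.81 CPM to 7.80 CPM, but the ratio was -0.14 by profile and 0.005 in Xist cells. The part of stromal RNA in these endothelial counts was not tested.

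Pdgfrb, the receptor of PDGF-B and PDGF-D, was highest in pericytes. The gene lies on chromosome 18 (61045150 to 61085061, plus strand, GRCm38). Pericytes had 514 CPM (475 to 555) in Control and 565 CPM (536 to 595) in Dach1OE, a log2 ratio of 0.14 (0.00 to 0.27). Adipoq/Lepr stromal cells had 353 CPM (339 to 367) and 328 CPM (307 to 350), a ratio of -0.11 (-0.22 to 0.01). Septoclasts had 282 CPM and 329 CPM (0.22, 0.04 to 0.41), and smooth muscle cells 176 CPM and 192 CPM (0.13, -0.09 to 0.35). In both libraries pericytes stood above all other classes without overlap of the intervals.

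Over all their cells none of these 4 classes, the highest in Pdgfrb of those compared, differed by 1.5-fold. In septoclasts the ratio was 0.017 in Xist cells but 0.588 (0.23 to 0.96) in Y-linked cells, past 1.5-fold. For mural cells as a whole the levels were 320 CPM (300 to 342) and 367 CPM (351 to 383), a log2 ratio of 0.20 (0.08 to 0.31). The thinned share of pericytes with a UMI was 41.1% and 41.2%. In ECs it was 0.184% and 0.434%, at median depths of 2329 and 2395 UMIs in pericytes and 2758 and 2750 UMIs in ECs.

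In bone stromal cells taken as 1 class Pdgfrb fell from 134 CPM (129 to 138) to 70.9 CPM (67.8 to 74.1), a log2 ratio of -0.92 (-0.995 to -0.835), or -0.71 relative to the median of all genes. It was the 1 gene of the 6 called in this class, beside 13.2% of all genes in either direction and 11.7% called as lower. Pdgfb, at 5.05 CPM and 7.55 CPM, lay just under 1.5-fold (0.581, 0.262 to 0.903). Centring on the median of all genes in the class (-0.204) raises that Pdgfb ratio past 1.5-fold. Here too the make-up of the class moved with the Pdgfrb level. Adipoq/Lepr stromal cells, rich in Pdgfrb, were 41.8% of Control and 19.9% of Dach1OE stromal cells. Osteoblasts, with 5.18 CPM and 4.92 CPM of Pdgfrb, were 25.2% and 44.0%. With 6 subtypes weighted equally the levels were 147 CPM and 143 CPM, a log2 ratio of -0.04. Without the Adipoq/Lepr stromal cells the levels were 57.7 CPM and 42.3 CPM, a ratio of -0.45, no longer past 1.5-fold.

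Within stromal subtypes Pdgfrb was called only in osteocytes. It fell from 15.1 CPM (11.2 to 19.9) to 4.87 CPM (2.89 to 7.70), a log2 ratio of -1.64 (-2.50 to -0.83), on 50 and 18 UMIs, where 5.94% of all genes were called. Assigned by profile, osteocytes had a ratio of -0.36 (-1.01 to 0.29), and the call ended. Metaphyseal stromal cells had 157 CPM and 137 CPM (-0.20, -0.41 to 0.00), and none of the 6 genes was called there, beside 5.15% of all genes. Proliferating stromal cells had 70.0 CPM and 52.3 CPM (-0.42, -0.82 to -0.02), with none called beside 6.86%. The ratio there was -1.10 (-1.77 to -0.45) in Xist cells and 0.445 (-0.41 to 1.33) in Y-linked cells, so its sign differed between these sets.

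**Figure D4:**
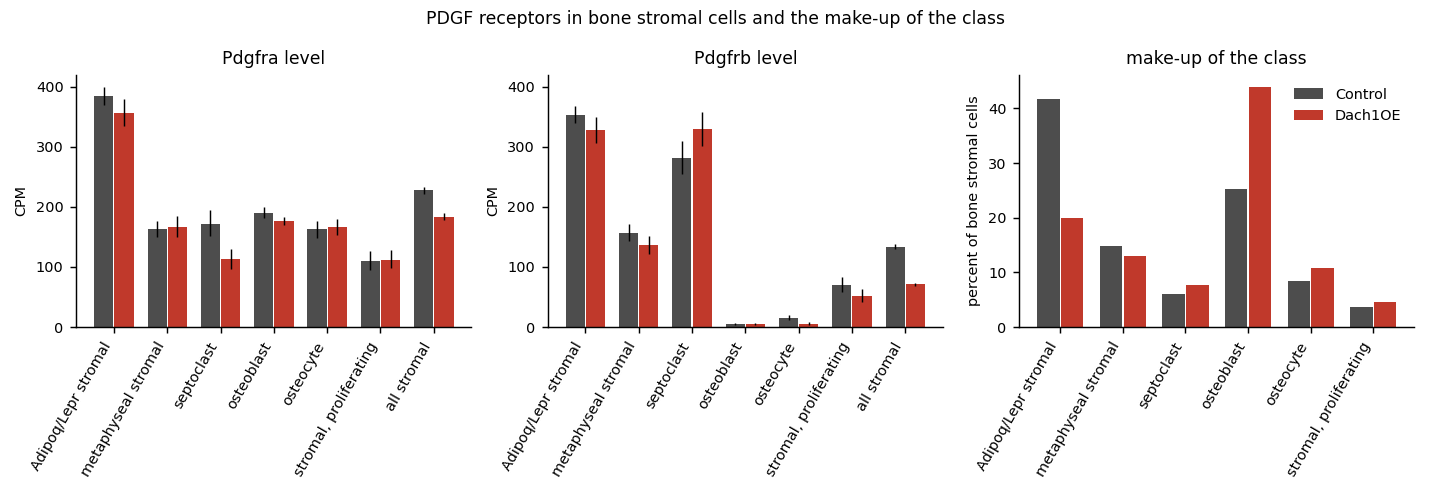
Levels of Pdgfra and Pdgfrb in CPM in 6 bone stromal subtypes and in the whole class, with exact Poisson 95% intervals, beside the percent of bone stromal cells in each subtype. Over the whole class Pdgfrb had 134 CPM and 70.9 CPM, while the Adipoq/Lepr subtype, at 353 CPM and 328 CPM, was 41.8% and 19.9% of its cells.

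The share of cells with UMIs of both receptors differed between classes. After thinning, 8.09% of Control and 8.25% of Dach1OE Adipoq/Lepr stromal cells had UMIs of both receptors, 22.1% and 19.8% of Pdgfra alone, and 23.0% and 19.8% of Pdgfrb alone. In septoclasts 5.2% and 4.18% had both, 12.7% and 8.08% Pdgfra alone, and 19.7% and 26.7% Pdgfrb alone. Metaphyseal stromal cells had 3.4% and 2.66% with both. Pericytes were positive for Pdgfrb alone (40.8% and 41.0%), with 0.211% and 0.208% for both. Osteoblasts were positive for Pdgfra alone (18.0% and 15.7%), as were most receptor-positive fibroblasts (21.4% and 22.9%). Both receptors were seen in 1.57% and 1.2% of fibroblasts and in 1.24% and 0.195% of osteocytes. At 1000 UMIs per cell a missing UMI does not show that a receptor was absent. The shares with both also depend on the level of each receptor, and co-expression beyond these levels was not tested.

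**Figure D5:**
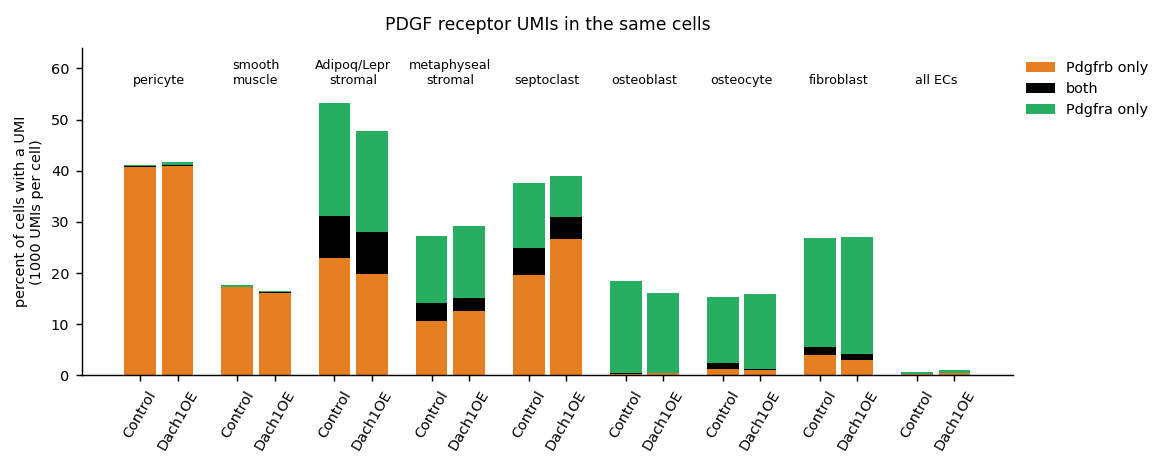
Percent of cells with a UMI of Pdgfrb only, of both receptors or of Pdgfra only, in 9 classes and both libraries, each cell thinned to 1000 UMIs. Adipoq/Lepr stromal cells had the largest share with both, 8.09% and 8.25%, and pericytes almost none, 0.211% and 0.208%.

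Genes around the PDGF system were followed as a list of 53, in 4 groups, namely processing enzymes and co-receptors, adaptors and effectors, negative regulators, and early response genes. In ECs 52 were measured, of which 6 rose and 1 fell, with a median log2 ratio of -0.01 against 0.03 over all genes. This share is near the 13.7% of all genes called in ECs and is no result about the list. Of the processing enzymes and co-receptors 4 of 11 rose and none fell, beside 7.41% of all genes called as higher in ECs. Plat, tissue plasminogen activator, which cleaves PDGF-C, rose from 21.8 CPM to 51.5 CPM (log2 1.24). St14, matriptase, which can process PDGF-D, rose from 0.957 CPM to 2.44 CPM (1.35, 0.715 to 2.023), on only 29 and 75 UMIs. The proprotein convertases Pcsk6 and Pcsk5, serine proteases of the furin family, rose from 19.3 CPM to 72.8 CPM (1.92) and from 9.41 CPM to 21.9 CPM (1.22). Of the 11 early response genes 2 rose, Fos and Ier2, each with a ratio of 0.61, and of the 11 negative regulators 1 fell, the ubiquitin ligase Cblb, from 79.9 CPM to 51.8 CPM (-0.63). None of the 19 adaptors and effectors was called. Centred on the median of all genes, Fos (0.579) and Ier2 (0.58) were just under 1.5-fold. Fos was among the leading genes of the Scgb3a1-positive ECs, which were 0.728% of Control and 22.8% of Dach1OE ECs, and the part of make-up in the ratios of these list genes was not tested.

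In mural cells 51 of the list were measured and 2 were called, beside 6.02% of all genes. Pcsk6 rose from 9.43 CPM to 20.8 CPM (log2 1.15), and Plau, urokinase, which activates PDGF-D, fell from 37.7 CPM to 17.1 CPM (-1.14). The Pcsk6 call rested on 28 and 116 UMIs and ended when cells were assigned by profile (0.33, -0.14 to 0.82). The median of the list was 0.12 against 0.05 over all genes. In bone stromal cells 52 were measured, none rose and 4 fell, beside 13.2% of all genes called in either direction and 11.7% called as lower, with a median of -0.19 against -0.20 over all genes. These were Spry1, a brake on receptor tyrosine kinases (123 CPM to 59.2 CPM, log2 -1.06), Nrp1, a co-receptor (201 CPM to 99.5 CPM, -1.01), Socs3 (55.3 CPM to 31.7 CPM, -0.80) and Pik3r1, a subunit of phosphoinositide 3-kinase (150 CPM to 89.3 CPM, -0.75). With the counts scaled by trimmed means or centred on the median of all genes, the Pik3r1 ratio was under 1.5-fold (-0.545 and -0.549), and Pcsk6, Sparc and Klf4 were higher in stromal cells instead of none of the list. The make-up of the stromal class differed between the libraries, and its part in the ratios of these list genes was not tested.

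Across 48 points, the classes of both libraries with enough cells, the genes whose log2(CPM + 1) levels ran most like each PDGF gene were found among 13494 genes. The points share libraries and differ in depth, so the Pearson r values are descriptions. For Pdgfb these were Esam, an endothelial junction gene of the gate itself (0.97), F11r (0.92) and Scarf1 (0.92). For Pdgfa they were Triqk (0.87), Dstn (0.85) and Map1lc3a (0.85), for Pdgfc Tmem119 (0.91), Insc (0.90) and Ptgis (0.90), and for Pdgfd Map4k3 (0.82), Rgs3 (0.81) and Rapgef4 (0.81). For Pdgfra they were Ackr4 (0.93), Itga11 (0.92) and the fibroblast proteoglycan gene Dcn (0.91), and for Pdgfrb Ednra (0.95), Foxs1 (0.93) and Ror1 (0.93).

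Some PDGF genes overlap others on the opposite strand, and whether counting used strand is not given in the sources used here. The antisense gene 6330403L08Rik at Pdgfa had 677 and 865 UMIs against 12487 and 16250 of Pdgfa in the kept cells. The overlapping genes of Pdgfb, Pdgfc, Pdgfd and Pdgfra had at most 51 UMIs per library. Reads of a gene and its antisense partner may not be told apart, and the Pdgfa values carry this uncertainty most.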

How the data were processed

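Femur and tibia cells of 1 Control and 1 Dach1OE library were profiled by BD Rhapsody whole-transcriptome sequencing. The deposited values are counts of molecules per cell and gene after the pipeline's recursive substitution error correction (RSEC). Per the file headers, the authors ran the BD Rhapsody WTA Analysis Pipeline version 1.11 on GRCm38 with intronic reads counted and refined cell calling. The methods name another version of the pipeline. Depth is given in the report, with 1.51 and 1.45 reads per UMI, so that intervals rest on UMIs.

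Cells with 500 to 6000 genes and under 25% mitochondrial UMIs were kept. Each cell was scored per marker list on log counts per 10000 UMIs, scaled to the list's upper cells (90th percentile), and assigned to the highest list above a gate of 0.2 with at least 3 markers seen. Cells whose second broad class reached 0.6 of the first were set aside as mixed (1495 and 1897 cells), which stands in for a doublet caller, and 2236 and 2524 cells stayed unassigned. The marker Ahsp was not in the table. Classes under 50 cells in either library were not compared.

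UMIs were summed per class and library. CPM intervals are exact Poisson, ratio intervals exact conditional binomial and share intervals Clopper-Pearson, all at 95%. Thinning drew 1000 UMIs per cell, and cells below that were left out (214 and 305 ECs, 6 and 37 mural cells, 41 and 31 bone stromal cells). The procedure was tested on simulated data, drawn from the classes' own pooled counts without spread between animals. Named were the 6 genes in each class, the called genes of the 53-gene list (at most 4 each way per class) and the 3 genes most like each PDGF gene with at least 200 UMIs in both libraries. Fos, Ier2 and the EC class leaders were named after their values were seen. The members and lists were chosen with earlier results of these data known. Alternatives were raw UMIs, other cell filters, profile-based classes, mixed cells kept, Xist or Y-linked cells only, thinned counts, TMM scaling (edgeR 4.0.16), centring and equal subtype weights. Python 3.11.15, numpy 2.4.6, scipy 1.17.1, pandas 2.3.3 and R 4.3.3 were used. Gene positions are from GENCODE on GRCm38.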

Additional observations from a re-analysis of the deposited data

Results flagged for a closer look

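The following log2 ratios of Dach1OE over Control had opposite signs, or intervals on opposite sides of 0, in different classes. The differences between classes were not tested, and counting intervals do not cover the spread between animals. For Pdgfa the ratio was 0.91 in ECs, 0.14 in bone stromal cells, 0.08 in chondrocytes and 0.44 in megakaryocytes, but -0.18 in mural cells and -0.33 in fibroblasts. For Pdgfra it was 0.73 in ECs and -0.31 in bone stromal cells. For Pdgfrb it was 0.20 in mural cells and -0.92 in the bone stromal class, and among stromal subtypes 0.22 in septoclasts, -1.64 in osteocytes and -0.42 in proliferating stromal cells. The osteocyte value was -0.36 (-1.01 to 0.29) when cells were assigned by profile, and the chondrocyte value of Pdgfa was -0.005 in cells with Xist. The EC value of Pdgfra was 0.27 (-0.007 to 0.55) by profile and 0.239 in cells with Xist. With subtypes weighted equally the Pdgfrb values were 0.134 in mural and -0.043 in bone stromal cells.

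In proliferating stromal cells the Pdgfa ratio was -1.22 in cells with Xist and 0.58 in cells with Y-linked UMIs, while over all cells of the class it was -0.15 (-0.41 to 0.12). The Pdgfrb ratio of the same class was -1.10 and 0.445 in these sets. These differences were not tested.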

How the results depend on the processing

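No paired analysis was possible because each group has 1 library. The Pdgfb ratio in ECs was past 1.5-fold under all 12 alternatives (0.721 to 1.112), as was that of Pdgfa (0.68 to 1.19). The Pdgfrb ratio in bone stromal cells was past it under 10 of 12 (-1.028 to -0.043). The ratios of Pdgfa and Pdgfrb in mural cells, of Pdgfra in bone stromal cells and of Pdgfra in fibroblasts never passed it, and those of Pdgfc and Pdgfd in ECs each passed it under 3 of 12 and changed sign under 1. The signs of the Pdgfra ratio in fibroblasts held in 9 of 10. Where a setting moved a value, the cause was not tested.

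With equal weights of the subtypes the ratios were 0.68 for Pdgfa, 0.72 for Pdgfb and -0.052 for Pdgfd in ECs, and -0.117 for Pdgfra and -0.043 for Pdgfrb in bone stromal cells. Without the Scgb3a1-positive ECs, a setting chosen after seeing the data like the next, they were 1.19, 1.112 and 0.69. Without the Adipoq/Lepr stromal cells they were -0.072 for Pdgfra and -0.45 for Pdgfrb. In Y-linked cells alone they were 1.16 for Pdgfa and 0.69 for Pdgfd in ECs, -0.38 for Pdgfa and 0.36 for Pdgfrb in mural cells, and -0.68 for Pdgfrb in bone stromal cells. In Xist cells alone they were -0.038 for Pdgfa in mural cells, -0.23 for Pdgfra in bone stromal cells and, with the sign turned, 0.45 for Pdgfd in septoclasts. Under 10% mitochondrial UMIs gave -0.30 for Pdgfa in mural cells, and -0.37 for Pdgfra and -1.03 for Pdgfrb in bone stromal cells. For the latter pair thinning gave -0.36 and -0.75, TMM scaling -0.10 and -0.71, and centring -0.10 and -0.71. The nearest class profile gave -0.79 for Pdgfrb in bone stromal cells and turned Pdgfra in sinusoidal ECs to -0.14.

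The share of all genes past 1.5-fold was also taken by fold alone, without the rule that the interval exclude 0. With at least 5, 1 and 200 UMIs it was 27.9, 39.0 and 10.9% in ECs and 20.4, 40.3 and 2.72% in mural cells. In bone stromal cells it was 27.4, 38.6 and 11.1%, and in fibroblasts 23.5, 39.1 and 5.5%. With at least 20 UMIs it was 18.5, 11.9, 18.3 and 15.3% in these classes, against 13.7, 6.02, 13.2 and 7.91% with the interval rule. Without thinning, 175 of 336 member shares were 5% or more. For ECs with against without a Dach1 UMI, the ratios were 0.21 for Pdgfa, 0.35 for Pdgfb and 0.16 for Pdgfd. Thinning gave -0.016, 0.371 and 0.134 for these genes, and equal weights gave 0.153, 0.22 and -0.11. Of the 53-gene list, 0 were higher in mural cells by profile, where the Pcsk6 call ended, 2 were lower there after centring, and 3 were higher in bone stromal cells by TMM scaling and by centring.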

Other observations

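Lymphatic ECs, 58 cells in Control and 22 in Dach1OE, were too few for a comparison. The 58 Control cells had 188 CPM of Pdgfa (129 to 266), more than any other EC subtype of Control, and 35.3 CPM of Pdgfb (12.95 to 76.83), less than the others though with an interval that overlaps that of Scgb3a1-positive ECs, from 32 and 6 UMIs.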
